A study of Mus musculus with 10 samples.

Results

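The aryl hydrocarbon receptor (AHR) pathway was followed through 9 genes of the 49315 in the count table, chosen by name for their place in the pathway. They are the receptor Ahr, its partner Arnt, the chaperones Hsp90ab1 and Ptges3, the feedback repressors Ahrr and Tiparp, and the induced enzymes Cyp1a1, Cyp1b1 and Nqo1. RNA was sequenced from the gastrocnemius of 10 male mice, 5 AHRfl/fl and 5 AHRmKO, all of them exposed to cigarette smoke for 16 weeks on 5 days per week at 220 ± 80 mg/m3 of particulates, and taken 72 h after the last exposure. Both genotypes carry floxed Ahr alleles on a C57BL6J background. AHRmKO mice also carry the HSA-MCM transgene, a tamoxifen-dependent Cre under the human skeletal actin promoter, so that the deletion is aimed at myofibres and leaves the other cells of the muscle with their floxed alleles. Tamoxifen preceded the smoke by 4 weeks according to the labels, while the study's main methods state a shorter interval. The labels do not say whether AHRfl/fl mice received it. No air-exposed mice were analysed here, so every value below is from mice with a history of smoke, measured days after the last exposure and not during it, and ages were not given in the labels. Each library was taken as 1 mouse.

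In the absence of a ligand the receptor waits in the cytoplasm, bound to a dimer of HSP90 and the cochaperone p23. Ligands such as the polycyclic hydrocarbons of tobacco smoke move it to the nucleus, where it pairs with ARNT and binds the core sequence GCGTG near its target genes. The targets include cytochrome P450 enzymes that oxidise the ligands, and the repressors AHRR and TIPARP, which close the loop.

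Total counts were between 30393035 and 36500548 in AHRfl/fl and between 35038167 and 37954388 in AHRmKO mice. Values are CPM, the counts scaled to TMM-normalized library sizes, and 3 counts, taken as the floor, came to 0.079 to 0.0987 CPM when raw library totals were used in place of TMM, which covers counting error only. The myofibre markers summed to between 99400 and 137000 CPM, and the keratinocyte markers Krt5 and Krt14 were at 3 counts or fewer in every library. Esr1, part of which is carried by the MerCreMer transgene, had between 544 and 658 counts in AHRfl/fl and between 9770 and 24975 in AHRmKO mice, which separates the libraries as labelled. Xist had more than 3 counts (between 44 and 75) in 5 libraries labelled male, AHRfl/fl mice 11, 15 and 33 and AHRmKO mice 9 and 22, while Ddx3y, of the Y chromosome, had between 1852 and 2723 counts in all 10. The fold changes are therefore also given without those 5 libraries.

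Of the 9 genes, 8 had enough counts to be tested and edgeR's quasi-likelihood test, adjusted by Benjamini-Hochberg with a threshold of 0.05, called 0 of these 8, where 0.0068% of all 14714 tested genes (1 gene, Esr1) were called. An unadjusted p under 0.05 was found for 0 of the 8, against 6.61% of all tested genes, and the DESeq2 Wald test also gave no adjusted p under 0.05, although it set none for Ahr, Cyp1a1 and Cyp1b1 because of their low counts. The genotypes overlapped in each of the 8, whereas 1.4% of all tested genes had groups that did not overlap. The log2 fold change, AHRmKO minus AHRfl/fl, was above 0 in 4 and below 0 in 4, with a median of -0.00348 against 0.00565 over all genes tested. The median size of the difference was 0.0966 on the log2 scale for the members and 0.103 for all genes.

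**Figure D1:**
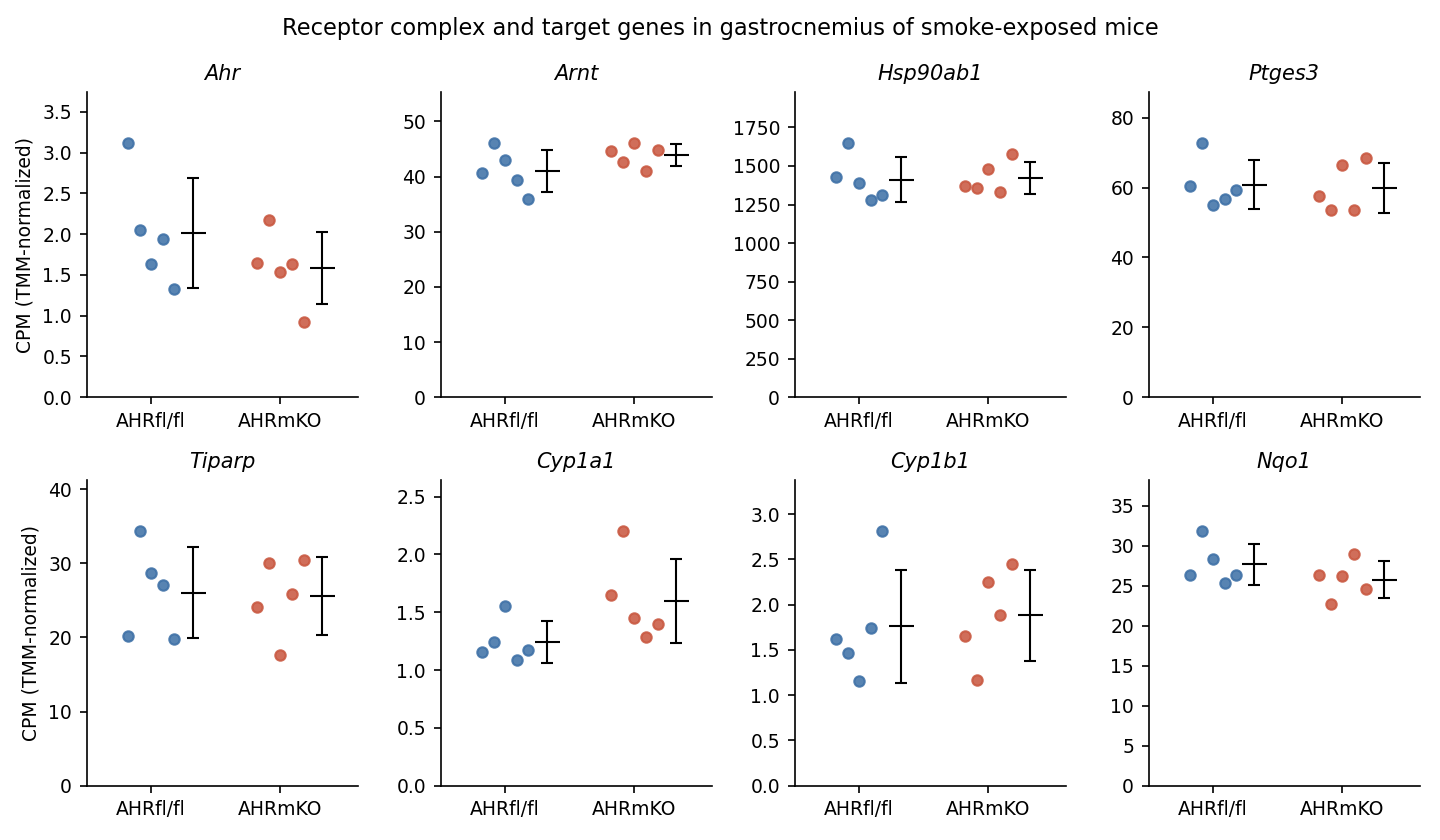
Level of each tested gene in CPM (vertical axis, starting at 0) for the 5 AHRfl/fl and 5 AHRmKO mice, 1 point per mouse, with the mean and SD beside them. The genotypes overlap in all 8 panels, and Cyp1a1 is the panel with the smallest p, at 1.24 ± 0.18 against 1.6 ± 0.359 CPM.

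The receptor gene Ahr (ENSMUSG00000019256, chromosome 12 of GRCm38, 35497974 to 35535038, minus strand) was one of the scarcest members. The AHRfl/fl mice 11, 12, 13, 15 and 33 had 3.12, 2.05, 1.63, 1.94 and 1.33 CPM, and the AHRmKO mice 8, 9, 19, 22 and 34 had 1.65, 2.17, 1.54, 1.63 and 0.926 CPM. Mouse 11 stood highest and mouse 34 lowest, and the other 8 lay between 1.33 and 2.17 CPM with the genotypes mixed. The difference had an exact permutation p of 0.294 (two-sided, where 5 mice against 5 allow no p below 0.00794), and its 95% interval, from 0.537 to 1.15 as a fold, includes no change. Without AHRfl/fl mouse 11 the log2 fold change moved from -0.35 to -0.13, and without AHRmKO mouse 34 to -0.21. Because this is whole muscle, fewer cells of a type and less RNA per cell cannot be told apart.

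The counts sum reads over the whole gene, whereas the floxed segment is exon 2, at chr12:35526681-35526868 on the minus strand of GRCm38. It is shown because it is the stretch that Cre removes. The capitals mark the match of the reverse primer of the study's real-time PCR, 22 nt from position 38 of the exon. By PCR and real-time PCR the study reported the intended edit of the DNA in skeletal muscle and not elsewhere.

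Ahr exon 2: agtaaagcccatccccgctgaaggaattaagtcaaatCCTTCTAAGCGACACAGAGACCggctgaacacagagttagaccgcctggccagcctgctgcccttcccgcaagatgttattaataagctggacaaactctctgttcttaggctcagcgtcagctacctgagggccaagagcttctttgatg

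The exon is 188 of the 5548 nt of the transcript Ahr-202, or 3.39%, and exons 10 and 11 together hold most of the rest, at 22.78% and 49.15%. Its length leaves a remainder of 2 when divided by 3. Joining exon 1 to exon 3 in the annotated sequence gives a reading frame that stops after 28 codons, against 805 codons in the full frame. The counts include the other 10 exons, so a transcript that lacks exon 2 would still be counted there if it is kept. Whether it is kept was not tested, and the reads of exon 2 itself were not analysed here. On the opposite strand Ahr shares 127 nt of exon with the lincRNA Gm48236, and whether the library kept strand was not stated.

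**Figure D2:**
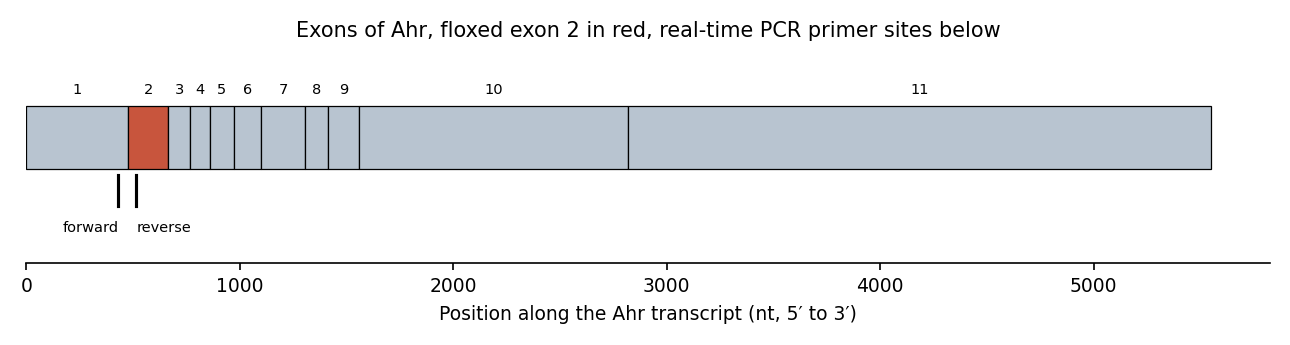
Exons of the Ahr transcript drawn to scale (horizontal axis, nt from the 5′ end), with the floxed exon 2 in red and the real-time PCR primer sites marked below. Exon 2 covers 3.39% of the transcript, while exon 11 alone covers 49.15%.

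Arnt, which encodes the partner that AHR needs to bind DNA (ENSMUSG00000015522, chromosome 3, 95434388 to 95497240, plus strand), was far more abundant and more even. It was at 40.7, 46.1, 43.0, 39.3 and 35.9 CPM in AHRfl/fl and at 44.7, 42.6, 46.0, 41.0 and 44.8 CPM in AHRmKO mice, in the order of mice given for Ahr. All 5 AHRmKO mice lay at or above the AHRfl/fl mean of 41.0 ± 3.84 CPM (SD, n = 5), but AHRfl/fl mouse 12 was above every AHRmKO mouse. On the log2 scale AHRmKO exceeded AHRfl/fl by 0.0952 ± 0.0708 (standard error), which edgeR's quasi-likelihood test gave an adjusted p of 0.845, and its 95% interval reached from a fold of 0.961 to 1.19. Without AHRfl/fl mouse 33 the value was 0.0507.

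The chaperone genes had the smallest differences in log2 fold change, beside Tiparp. Hsp90ab1, the constitutive HSP90 (ENSMUSG00000023944, chromosome 17, 45567775 to 45573271, minus strand), was at 1410 ± 145 CPM in AHRfl/fl and 1430 ± 105 CPM in AHRmKO muscle (SD, n = 5 each). Ptges3, which encodes p23 (ENSMUSG00000071072, chromosome 10, 128058954 to 128077272, plus strand), was at 60.8 ± 7.07 and 60.0 ± 7.18 CPM. For both the exact permutation p was 0.857 (two-sided), and the 95% intervals of the fold, 0.889 to 1.14 and 0.857 to 1.14, are among the narrowest of the members. The ratio of Hsp90ab1 to Ptges3 per kb stayed between 16.4 and 18.8 in all 10 mice. Near-identical copies of Ptges3 had 136 to 190 counts, or 6.87 to 8.64% of its own, and those of Hsp90ab1 at most 0.0119%.

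Of the repressors, Ahrr (ENSMUSG00000021575, chromosome 13, 74211118 to 74292331, minus strand) was at the limit of detection. It had 0, 0, 0, 3 and 5 counts in the AHRfl/fl and 0, 1, 1, 2 and 0 in the AHRmKO mice, 8 against 4 counts in all. Only AHRfl/fl mouse 33 exceeded 3 counts, and a difference was not detectable at this depth. Tiparp, which encodes an ADP-ribosyltransferase that acts on the receptor (ENSMUSG00000034640, chromosome 3, 65528410 to 65555518, plus strand), was well counted. It was at 20.2, 34.3, 28.7, 27.1 and 19.8 CPM in AHRfl/fl and at 24.1, 30.1, 17.6, 25.9 and 30.5 CPM in AHRmKO mice. The highest mouse was an AHRfl/fl and the lowest an AHRmKO mouse, and the means, 26.0 ± 6.11 and 25.6 ± 5.26 CPM (SD, n = 5 each), lay close together. Its log2 fold change of -0.0226 had a 95% interval of -0.42 to 0.38. Tiparp shares 223 nt of exon with 4931440P22Rik on the opposite strand, which had 19 to 52 counts.

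Among the induced enzymes, Cyp1a1, the P450 usually read as the marker of AHR activity (ENSMUSG00000032315, chromosome 9, 57687928 to 57703824, plus strand), had the smallest p of the members. It was at 1.16, 1.24, 1.55, 1.09 and 1.17 CPM in AHRfl/fl and at 1.65, 2.20, 1.45, 1.29 and 1.40 CPM in AHRmKO mice. All 5 AHRmKO mice were above the AHRfl/fl mean, and AHRfl/fl mouse 13 was above 3 of them. The exact permutation p was 0.0556 (two-sided), and the log2 fold change had an adjusted p of 0.792 in edgeR's quasi-likelihood test. The value rests in part on AHRmKO mouse 9, without which the log2 fold change moved from 0.36 to 0.22. Each library holds only 38 to 81 counts of this gene, and the mean counting error of 14.1% is a large part of the 18.9% variation between mice of a genotype.

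Cyp1b1, a P450 of connective tissue and vessels (ENSMUSG00000024087, chromosome 17, 79701537 to 79715061, minus strand), was at 1.62, 1.47, 1.16, 1.74 and 2.81 CPM in AHRfl/fl and at 1.65, 1.17, 2.25, 1.89 and 2.45 CPM in AHRmKO mice. The highest and the lowest mouse were both AHRfl/fl. Between genotypes the log2 fold change was 0.098 with a 95% interval of -0.45 to 0.65, and it moved to 0.33 without AHRfl/fl mouse 33 and to -0.0227 without AHRfl/fl mouse 13. Nqo1, a quinone reductase that both AHR and NRF2 induce (ENSMUSG00000003849, chromosome 8, 107388225 to 107403206, minus strand), was at 26.4, 31.8, 28.4, 25.3 and 26.4 CPM in AHRfl/fl and at 26.3, 22.7, 26.2, 29.0 and 24.6 CPM in AHRmKO mice. In 4 of the 5 AHRmKO mice it was below the AHRfl/fl mean of 27.7 ± 2.56 CPM (SD, n = 5). The 95% interval of its fold was 0.824 to 1.05, and the gene had at least 822 counts in every mouse. Its log2 fold change of -0.10 became -0.0502 without AHRfl/fl mouse 12 and -0.0606 without AHRmKO mouse 9.

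Without the 5 libraries that held Xist counts, 2 AHRfl/fl and 3 AHRmKO mice remained and edgeR's quasi-likelihood test gave no member an adjusted p below 0.978. The log2 fold changes were then -0.42 for Ahr, 0.0206 for Arnt, -0.0393 for Hsp90ab1 and 0.012 for Ptges3. For the repressor Tiparp the value was -0.39, and for the enzymes it was 0.11 for Cyp1a1, 0.69 for Cyp1b1 (95% interval -0.0152 to 1.4) and -0.23 for Nqo1. The values of Arnt, Hsp90ab1, Tiparp, Cyp1a1, Cyp1b1 and Nqo1 lie outside the range seen when any 1 mouse was left out. Those of Ahr and Ptges3 lie inside it.

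**Figure D3:**
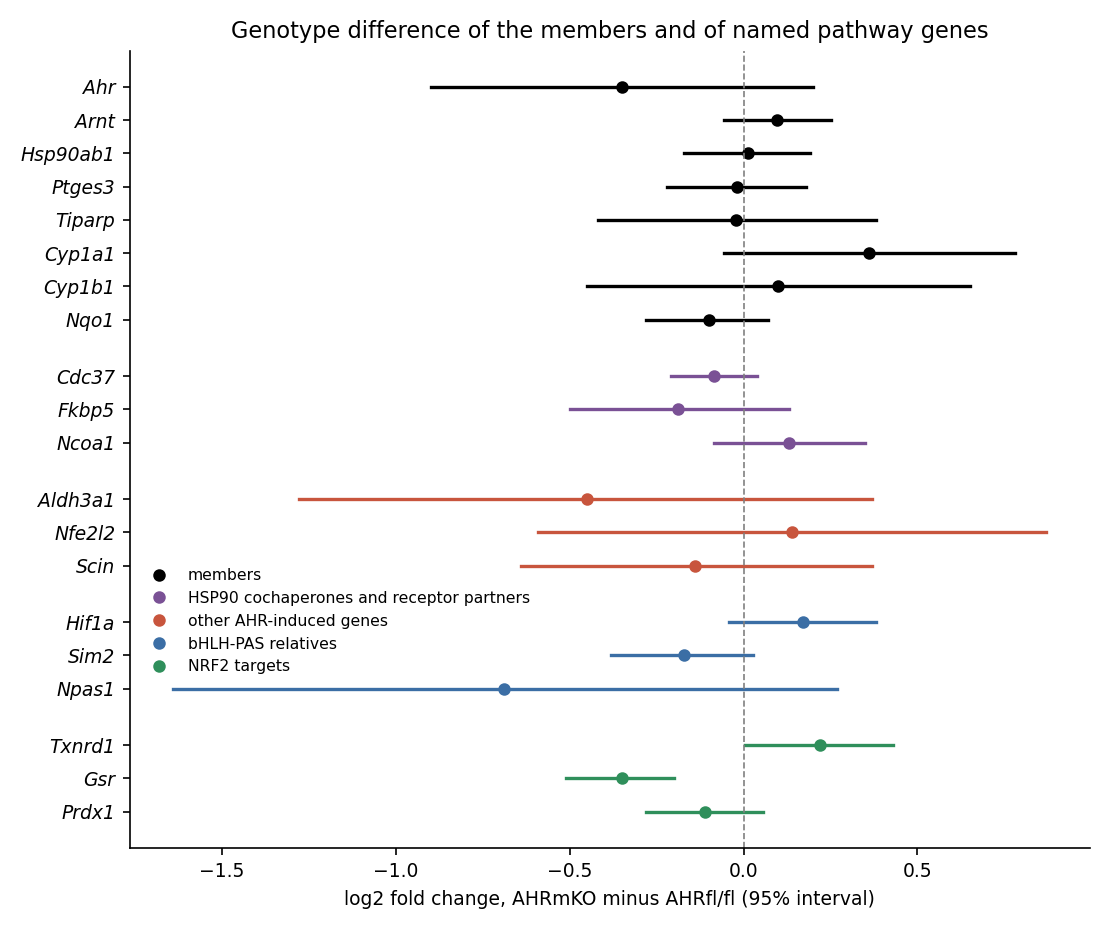
Log2 fold change, AHRmKO minus AHRfl/fl, with its 95% interval (horizontal axis) for the 8 tested members and for the 3 genes with the lowest p in each of 4 further lists. Every member's interval includes 0, and Gsr and Txnrd1 are the only genes drawn whose intervals do not.

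The start sites of Arnt, Ptges3 and the feedback and enzyme genes were searched for the core sequence GCGTG on both strands. The windows ran from 250 nt before to 50 nt after the RefSeq start (GRCm38.p6). Windows were at hand for 7 of the 9 members, and 6 of them held the letters, which 32.4% of all 32851 windows do. Ahrr had 3 matches, Ptges3 had 2, and Arnt, Tiparp, Cyp1a1 and Cyp1b1 had 1 each. Nqo1 had none. The longer TNGCGTG, which contains GCGTG and is held by 5.07% of all windows, occurred only in Ahrr. The surroundings of the matches in the repressors and P450 genes are shown, 5′ to 3′ on the gene's own strand with the matched letters in capitals (CACGC is a match on the opposite strand), because these genes are the classical readouts of the receptor.

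Ahrr, chr13:74292425-74292447, minus: tgaaagggcGCGTGgcaggcagg
Ahrr, chr13:74292400-74292422, minus: caaggatgtGCGTGcgccctctg
Ahrr, chr13:74292345-74292367, minus: gggcggctcGCGTGctggggtgg
Tiparp, chr3:65528268-65528290, plus: cgtccggagCACGCgcacgggag
Cyp1a1, chr9:57697550-57697572, plus: gataaggagGCGTGgccaacaga
Cyp1b1, chr17:79715124-79715146, minus: cccgcccctCACGCcccaccccc

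Counted from the start site, the matches lie at -107, -82 and -27 in Ahrr, at -170 in Tiparp, at -54 in Cyp1a1 and at -76 in Cyp1b1. A match of these letters describes the sequence and is not a binding site. The gene with the most matches, Ahrr, was the one with the fewest counts.

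Compared per kb of merged exons, the members spanned a wide range. Hsp90ab1 led with a median of 460 CPM per kb over the 10 mice, followed by Ptges3 at 26.4 and Nqo1 at 17.0. Tiparp at 6.08 and Arnt at 5.35 overlapped, Tiparp being higher in 7 of 10 mice. With the longest transcript as the length, Arnt moved above Tiparp in all 10 mice, at 9.9 against 6.32 CPM per kb. Cyp1a1 at 0.483, Cyp1b1 at 0.291 and Ahr at 0.267 overlapped each with the next, and Ahrr came last at 0.00144 CPM per kb. Per kb, the partner Arnt thus exceeded Ahr in every mouse, by a ratio of 16.8 ± 4.34 in AHRfl/fl and 23.1 ± 8.4 in AHRmKO mice (SD, n = 5 each). With the length of the longest transcript this ratio, which was not planned, was 28.0 ± 7.24 and 38.5 ± 14.0.

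**Figure D4:**
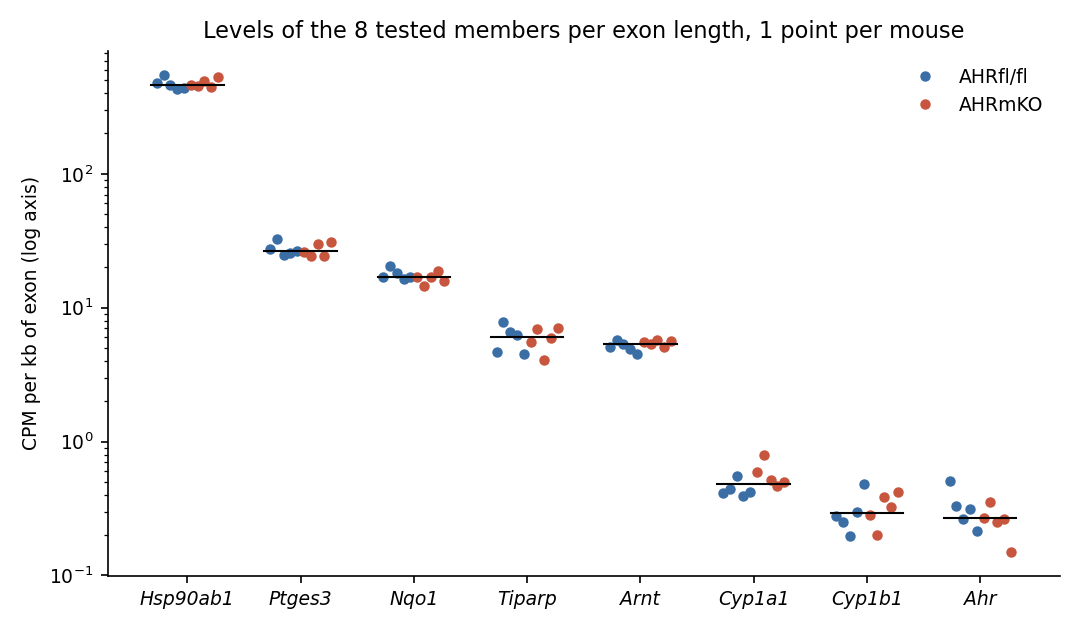
CPM per kb of exon (vertical log axis) of the 8 tested members, 1 point per mouse coloured by genotype, with the median of the 10 mice as a bar. Hsp90ab1, at a median of 460, is far above the rest, and Cyp1a1, Cyp1b1 and Ahr lie lowest, at 0.483, 0.291 and 0.267.

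Ratios between members were compared between genotypes in 6 pairs, which were chosen with the levels known. Nqo1 over Cyp1a1 was 40.4 ± 4.76 in AHRfl/fl and 30.2 ± 7.89 in AHRmKO mice (SD, n = 5 each, exact permutation p = 0.0238, two-sided), and after Benjamini-Hochberg adjustment over the 6 the p was 0.143. Cyp1a1 over Ahr was 1.49 ± 0.528 and 2.33 ± 0.605 (exact permutation p = 0.0556, adjusted 0.167). The 4 other ratios, Arnt, Hsp90ab1 and Ptges3 over Ahr and Hsp90ab1 over Ptges3, had exact permutation p between 0.206 and 0.46. None of the 6 passed the adjusted threshold.

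Whether the members moved together from mouse to mouse was asked through 39 relations of log2 CPM, those of Ahr with the 7 other tested members and those of the 8 members with endothelial, fibroblast, macrophage and slow fibre marker scores. After adjustment 0 of the 39 had a p under 0.05, for Pearson's r or for Spearman's rho, and 6 had an unadjusted p under 0.05 for Pearson's r. How often other genes relate to these scores was not analysed here, so the 6 cannot be set against a share over all genes. Ahr was most closely related to Cyp1b1, with r = -0.60 (permutation p = 0.0629, adjusted 0.35) and rho = -0.76 (permutation p = 0.0150, adjusted 0.165). Without mice 11 and 34, the farthest from the median of Ahr, r was -0.73, and with the genotype means subtracted it was -0.60.

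Ahr had r between -0.24 and 0.11 with the 6 other members (permutation p between 0.512 and 0.905, adjusted 0.717 to 0.954), and rho between -0.15 and 0.20 (permutation p between 0.584 and 1.0). With Tiparp, r was -0.08 over all 10 mice and 0.80 without mice 11 and 34, so that this relation changes sign with those mice. With Cyp1a1, r was -0.04 over all mice and 0.26 with genotype means subtracted.

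Several members had unadjusted relations with the marker scores. Cyp1b1 had r = 0.75 with the macrophage score (permutation p = 0.0130, adjusted 0.217), rho = 0.75 (permutation p = 0.0173, adjusted 0.165), r = 0.84 with AHRmKO mice 9 and 22 left out, which were the farthest on the score, and r = 0.74 with genotype means subtracted. The same score had r = -0.59 with Cyp1a1 (permutation p = 0.0743, adjusted 0.362, rho = -0.27 with permutation p = 0.449), and -0.87 with genotype means subtracted, but -0.25 without AHRmKO mice 9 and 22. Arnt had r = -0.74 with the fibroblast score (permutation p = 0.0135, adjusted 0.217, rho = -0.73 with permutation p = 0.0199), -0.75 without 2 mice and -0.76 centred.

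Hsp90ab1 had negative relations with 3 scores. They were r = -0.69 with the endothelial score (permutation p = 0.0287, adjusted 0.224, rho = -0.73 with permutation p = 0.0211), r = -0.73 with the fibroblast score (permutation p = 0.0167, adjusted 0.217, rho = -0.76 with permutation p = 0.0152) and r = -0.70 with the slow fibre score (permutation p = 0.0230, adjusted 0.224, rho = -0.59 with permutation p = 0.0802). With the pair of mice farthest on each score left out these were -0.66, -0.61 and -0.54, and with genotype means subtracted -0.72, -0.73 and -0.75. Ptges3 had r = -0.64 with the endothelial score (permutation p = 0.0462, adjusted 0.301, rho = -0.58 with permutation p = 0.0893), -0.60 without 2 mice and -0.65 centred. These relations were weaker when CPM were scaled by library size alone, at -0.47, -0.54 and -0.58 for Hsp90ab1 with the endothelial, fibroblast and slow fibre scores, -0.41 for Ptges3 with the endothelial and -0.52 for Arnt with the fibroblast score. By the same scaling Ahr and Cyp1b1 had r = -0.50, and Cyp1b1 and the macrophage score 0.77. Between genotypes the scores had exact permutation p between 0.238 and 0.889 over 11 marker lists. The largest difference was that of the slow fibre score, 0.974 higher on the log2 scale in AHRmKO mice (exact permutation p = 0.468). The slow fibre markers varied widely, from 65.8 to 1750 CPM in AHRfl/fl and from 225 to 2110 CPM in AHRmKO mice. Fold changes of some genes with the slow fibre or endothelial score as a covariate are given in the last section. The part of these cell types in the members' values was not otherwise tested.

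**Figure D5:**
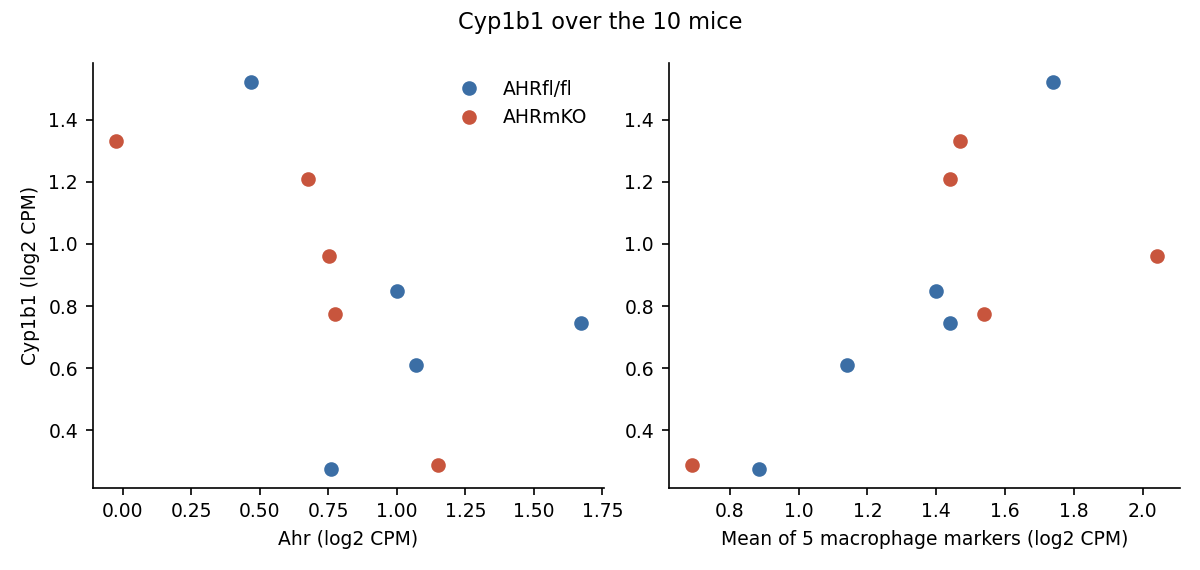
Cyp1b1 in log2 CPM (vertical axes) against Ahr in log2 CPM and against the mean log2 CPM of 5 macrophage markers (horizontal axes), 1 point per mouse coloured by genotype. Pearson's r over the 10 mice is -0.60 with Ahr and 0.75 with the macrophage score, and neither passed the adjusted threshold.

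The genes whose pattern over the 10 mice was most like that of Ahr, after genotype means were subtracted, were Col9a1 (r = 0.95), Pon1 (0.94), Ypel2 (0.92), Ttc14 (0.91) and Agmo (0.90). For Cyp1a1 they were Slc25a40 (0.95), Oxr1 (0.91), Enpp4 (0.90), Irak2 (0.89) and Aldh6a1 (0.89). These are the highest of 14714 values, and 75 and 66 genes had r above 0.8 with Ahr and with Cyp1a1. Pon1 was at 0.0927 CPM in its lowest mouse, within the range of the floor. All points share library depth, and these r are descriptions.

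The rest of the pathway was read from 4 further lists. Among all 14714 tested genes the log2 fold change was above 0 in 7581 and below 0 in 7133, with a median of 0.00565. Of 14 HSP90 cochaperones and receptor partners all were tested and 0 passed the adjusted threshold, with 10 above and 4 below 0 and a median log2 fold change of 0.0656. The 3 ranked first by edgeR were Cdc37, the kinase cochaperone (-0.0857, exact permutation p = 0.0635), Fkbp5, an immunophilin (-0.19, 0.294), and Ncoa1, a coactivator (0.13, 0.302). Of 10 other AHR-induced genes only 3 could be tested, Aldh3a1, Nfe2l2 and Scin, at -0.45, 0.14 and -0.14, and 0 passed. Cyp1a2 had 0 counts in every mouse. Single mice moved several of these values, Fkbp5 to -0.062 without AHRfl/fl mouse 15, -0.12 without AHRmKO mouse 8 and -0.29 without AHRmKO mouse 34, Ncoa1 to 0.0792 without AHRfl/fl mouse 33 and 0.059 without AHRmKO mouse 8, and Aldh3a1 to -0.0851 without AHRfl/fl mouse 12. Nfe2l2 was at -0.13 without AHRmKO mouse 34 and 0.42 without AHRfl/fl mouse 12, and Scin at 0.0306 without AHRmKO mouse 19 and -0.29 without AHRmKO mouse 22. Without the 5 libraries with Xist counts the values were -0.12 for Cdc37, -0.10 for Fkbp5, 0.13 for Ncoa1, -0.75 for Aldh3a1, -0.0491 for Nfe2l2 and -0.64 for Scin.

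Of 12 relatives of AHR in the bHLH-PAS family 9 were tested and 0 passed, with 3 above and 6 below 0 and a median of -0.15. The 3 ranked first by edgeR were Sim2 (-0.17, exact permutation p = 0.103), Hif1a, the hypoxia factor (0.17, 0.214) and Npas1 (-0.69, 0.19, at 3 to 24 counts). Of 11 NRF2 targets, the antioxidant genes to which Nqo1 also belongs, 9 were tested and 0 passed in edgeR, with a median of -0.0211. Gsr, glutathione reductase, was lower in AHRmKO muscle without overlap of the groups (log2 fold change -0.35). Groups did not overlap in 206 of all 14714 tested genes (1.4%). The exact permutation p of Gsr, 0.00794, is the smallest possible and follows from the lack of overlap. Its adjusted p was 0.544 in edgeR's quasi-likelihood test and 0.0279 in the DESeq2 Wald test, which called 21 of 10858 genes. Txnrd1, thioredoxin reductase, stood at 0.22 (unadjusted p = 0.0459 in edgeR, adjusted 0.744) and Prdx1, a peroxiredoxin, at -0.11 (unadjusted p = 0.175 in edgeR). Without AHRmKO mouse 19 Hif1a was at 0.0921 and Txnrd1 at 0.14, without AHRfl/fl mouse 33 Npas1 was at -0.40, and without AHRfl/fl mouse 12 Prdx1 was at -0.0534. Without the 5 libraries with Xist counts the values were 0.24 for Hif1a, -0.27 for Sim2, -0.38 for Npas1, 0.28 for Txnrd1, -0.36 for Gsr and -0.11 for Prdx1.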

How the data were processed

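Poly(A) paired-end reads were trimmed by the authors with Trimmomatic 0.36 and mapped with STAR 2.5.2b to GRCm38. The deposited values are raw counts, the reads that mapped uniquely to exons of each Ensembl gene, 1 column per mouse. The study's methods say that strand was used if the library kept it, and whether it did is not given in the sources used here. Gene names and exons came from GENCODE M21, in which 49056 of the 49315 identifiers were found.

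The test was the quasi-likelihood test of edgeR 4.0.16 (R 4.3.3, robust fit) after filterByExpr (minimum count 10, minimum total 15) and TMM normalization. P-values were adjusted by Benjamini-Hochberg over the 14714 genes kept. Log2 CPM used a prior count of 2. Single genes were compared by two-sided exact permutation tests, and relations by permutation tests with 100000 resamples. Alternatives were DESeq2 1.42.0 (Wald test), limma 3.58.1 (voom), other scalings and filters, marker scores as covariates, added counts of near-identical copies, and leaving out mice. Tested on simulated data for this comparison (14714 genes), edgeR called 50 of 67 genes with a log2 change of 1 and 27 of 67 with one of 0.5. The changed genes were drawn from tested genes of all levels, and more were changed than were called in the data, which eases the adjusted threshold. These shares therefore do not give the chance of calling a member, least of all the scarce Ahr, Cyp1a1 and Cyp1b1.

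The members and lists were chosen with earlier results of these data known, and the 6 level ratios were not planned. Named are the members, the 3 genes with the lowest p and any called gene of each list, and the 5 genes most like Ahr and Cyp1a1. Depth was 30393035 to 37954388 counts per mouse.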

Additional observations from a re-analysis of the deposited data

How the results depend on the processing

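No member was called under any alternative or with any mouse left out. The number of genes called, 1, became 21 with the DESeq2 Wald test, 5 with no filter, 2 with the slow fibre score and 4 with the endothelial score as a covariate, and ranged from 1 to 6 with each mouse left out. DESeq2 called 1 gene of the further lists, Gsr, at -0.35. Ahr kept its sign in all settings (-0.44 to -0.29, and -0.48 to -0.13 with each mouse left out), as did Arnt (0.0206 to 0.13, and 0.0507 to 0.14), Nqo1 (-0.23 to -0.0774, and -0.15 to -0.0502) and Cyp1a1 (0.11 to 0.43, and 0.22 to 0.45). The lowest unadjusted p of Cyp1a1 over all settings was 0.0457.

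Fold changes near 0 changed sign. Ptges3 was at 0.0183 with the slow fibre score, 0.0197 with the endothelial score, 0.012 without the libraries with Xist counts, and -0.0722 to 0.0528 with each mouse left out. Hsp90ab1 was at -0.00382 by library size, -0.0393 without the libraries with Xist counts, and -0.0284 to 0.0733 with each mouse left out, and it was at 0.0619 with the slow fibre and 0.0482 with the endothelial score. Tiparp was at 0.0552 and 0.0252 with the 2 scores and -0.11 to 0.0978 with each mouse left out. With each mouse left out, Cyp1b1 ranged from -0.0227 to 0.33, Nfe2l2 from -0.13 to 0.42 and Scin from -0.29 to 0.0306. Without the libraries with Xist counts these genes were at 0.69, -0.0491 and -0.64. With the slow fibre score Cyp1b1 was at 0.0196, Aldh3a1 at -0.29 and Nfe2l2 at 0.31, the last at 0.30 with the endothelial score. By library size Cyp1b1 was at 0.0622 and Ptges3 at -0.038. The causes were not tested.

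The relations of Ahr also changed sign, for Arnt to 0.12 with genotype means subtracted and 0.41 without 2 mice, for Hsp90ab1 to 0.28 and for Ptges3 to 0.04 without 2 mice, for Tiparp to 0.20 by rank and 0.80 without 2 mice, for Cyp1a1 to 0.26 and 0.34, and for Nqo1 to -0.06 and -0.14. With each mouse left out they ran from -0.44 to 0.13, -0.37 to 0.27, -0.46 to 0.08, -0.22 to 0.23, -0.38 to 0.22 and -0.13 to 0.34 in the same order.

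No paired analysis was possible because no animal number occurs in both genotypes and the labels name no litters. The mean counting error was 12.5% for Ahr, at 31 to 110 counts per library, 14.1% for Cyp1a1 and 12.5% for Cyp1b1. Mice of a genotype varied by 31.0%, 18.9% and 31.6% in the same order. Ahrr, at 8 against 4 counts in all, had the largest counting error of the members, 91.3%, and was removed by the filter of edgeR. The DESeq2 Wald test kept it, at -1.13 ± 1.62 (standard error) on the log2 scale with no adjusted p, which is too imprecise to show a direction.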
